A study of Homo sapiens with 6 samples.

Results

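The 8 genes described here encode the subunits of TRiC, the cytosolic chaperonin also called CCT: TCP1, CCT2, CCT3, CCT4, CCT5, CCT6A, CCT7 and CCT8. They were taken by symbol from a deposited table of 30403 genes, and all 8 had a row and passed the filter on low counts. The cells were HK-2, a human proximal tubule line, and were harvested 48 h after transfection with a Lipofectamine reagent. The plasmid carried an shRNA against PARP1 in 3 libraries (shPARP1) and a control shRNA in the other 3 (shCtrl). All 6 libraries came from this 1 line, and the labels state neither a selection of transfected cells nor separate cultures for the replicates, so p-values measure the spread between libraries, which may be technical. The shCtrl libraries held 24429683 to 26269194 counts and the shPARP1 libraries 29387853 to 32809303, every one of them more than any control.

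TRiC is built from stacked rings of related subunits that close over an unfolded protein and open again as ATP is hydrolysed. Each subunit has a fixed place in the ring, and all are needed for a working complex. Actin and tubulin are its best known clients, together with many proteins with beta-propeller folds. Prefoldin hands some of these clients to the ring, and phosducin-like proteins bind it as cofactors.

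The target of the shRNA was checked first. PARP1, the main nuclear poly(ADP-ribose) polymerase, kept 10.4% ± 0.524 (SD, n = 3) of the control CPM in shPARP1, where CPM are counts relative to the library total, adjusted by the trimmed mean of M-values (TMM). Of 11 epithelial and tubular markers, 7 were tested and they moved in both directions. KRT18 (239.7 CPM in shCtrl, 361 CPM in shPARP1) and KRT8 (635 and 683 CPM) were called higher. CDH6 (446 and 214.7 CPM), DPP4 (26.4 and 16.3 CPM), PAX8 (417 and 345 CPM) and GGT1 (291 and 237 CPM) were called lower. AQP1 (2.21 and 1.63 CPM) was not called, and the tubular genes LRP2, CUBN, SLC34A1 and ANPEP had at most 0.291 CPM in either. Of the leukocyte and endothelial markers CD3E, CD68, PECAM1, VWF and CDH5, CD68 stood at 6.42 to 6.60 CPM in shCtrl and at 7.96 to 8.62 CPM in shPARP1 and was called higher, and no group mean of the other 4 exceeded 0.227 CPM. The leukocyte marker PTPRC was not among the deposited genes and could not be checked. The part of all these markers in the results was not tested.

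All 8 subunit transcripts were higher in shPARP1 and passed the test (edgeR quasi-likelihood test, Benjamini-Hochberg adjusted p under 0.05 over 16040 genes), and no subunit fell. Their log2 fold changes, shPARP1 against shCtrl, had a median of 0.38 and ran from 0.12 for CCT8 to 0.84 for CCT5, while the median over all genes tested was -0.01. Of all genes tested, 55.7% were called in either direction and 27.3% were called higher, and of the 2520 genes whose mean CPM lay in the range of the subunits 46.3% were called higher. The CPM of the groups did not overlap for any of the 8 subunits, with shPARP1 above, against 29.7% of all genes tested, or 60.1% counting both directions. The size of the rise differed from subunit to subunit, and none reached 2-fold. In RNA from whole cultures, a rise in every cell and a larger rise in some of the cells cannot be told apart.

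**Figure D1:**
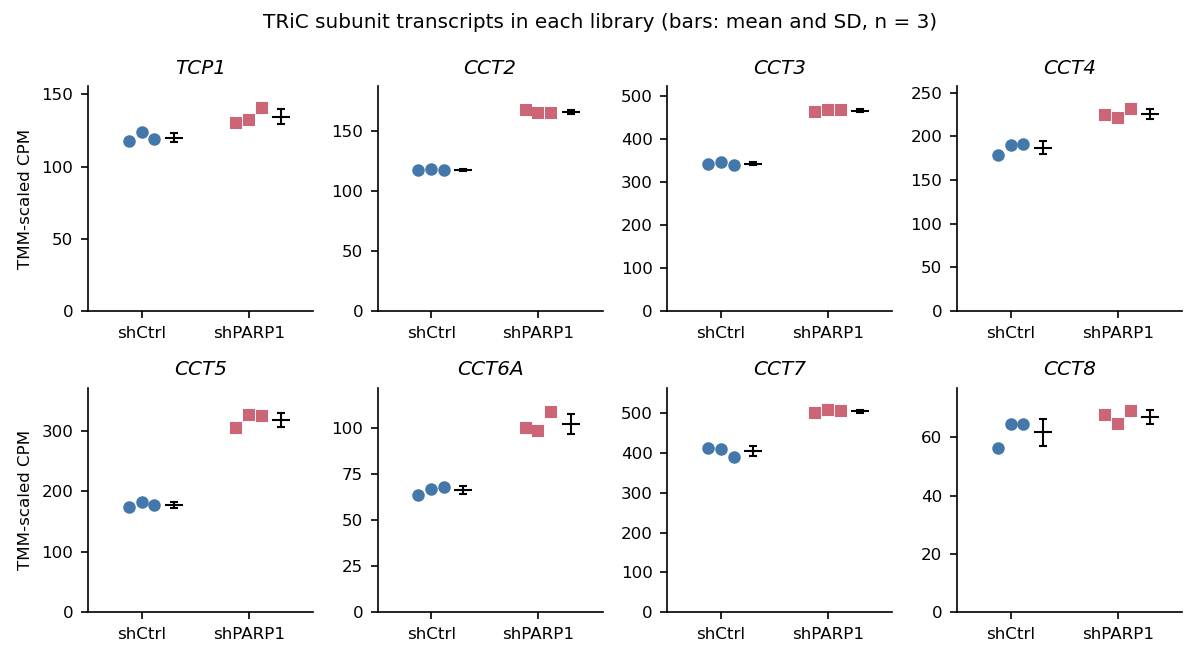
Points are the TMM-scaled CPM of each TRiC subunit gene in single libraries (circles shCtrl, squares shPARP1), and the bar beside them is the mean with its SD over 3 libraries; each y axis starts at 0. The squares lie above the circles in every panel, far apart for CCT5 (306 to 326 CPM against 174 to 183) and nearly touching for CCT8.

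TCP1, CCT2, CCT4 and CCT5 sit next to each other in the ring and form the side that binds ATP more tightly. CCT5, the epsilon subunit (ENSG00000150753), had 174, 183 and 178 CPM in the 3 shCtrl libraries and 306, 326 and 325 CPM in shPARP1. The lowest knockdown library was 1.67 times the highest control library. The rise was 1.79-fold, a log2 fold change of 0.84 (SE 0.04, edgeR adjusted p = 7.1e-28), and 721 of the 16040 genes tested had a larger log2 fold change.

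CCT2, the beta subunit, was at 117, 119 and 117 CPM in shCtrl and at 168, 165 and 165 CPM in shPARP1. Libraries of a group lay within a few CPM of each other, and the log2 fold change was 0.49 (SE 0.04, edgeR adjusted p = 7.1e-17). CCT4, the delta subunit, had 179, 191 and 192 CPM in shCtrl and 224, 221 and 232 CPM in shPARP1. Its groups were separate with a smaller gap, and the log2 fold change was 0.27 (SE 0.04, edgeR adjusted p = 6.7e-09); a correction for length and GC content brought it to 0.17. TCP1, the alpha subunit and the one that gave the complex its name, had 118, 124 and 119 CPM in shCtrl and 131, 132 and 141 CPM in shPARP1. The log2 fold change of TCP1 was 0.16 (SE 0.04, edgeR adjusted p = 0.00055), the second smallest of the 8.

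CCT3, CCT6A, CCT7 and CCT8 make up the other side of the ring. CCT6A, the zeta subunit, had 63.6, 67.1 and 68.0 CPM in shCtrl and 99.8, 98.5 and 109 CPM in shPARP1. The 3 knockdown libraries were at least 1.45 times the highest control library, and the log2 fold change was 0.63 (SE 0.05, edgeR adjusted p = 6.7e-18). CCT3, the gamma subunit, had 342, 345 and 339 CPM in shCtrl and 461, 466 and 467 CPM in shPARP1. Its groups were narrow and far apart, and the log2 fold change was 0.44 (SE 0.03, edgeR adjusted p = 4.3e-18). CCT7, the eta subunit and the one with the most counts, had 411, 409 and 389 CPM in shCtrl and 499.9, 506 and 503 CPM in shPARP1. Its log2 fold change was 0.32 (SE 0.03, edgeR adjusted p = 8.5e-13).

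CCT8, the theta subunit, was the weakest case. It had 56.3, 64.4 and 64.4 CPM in shCtrl and 67.5, 64.5 and 69.1 CPM in shPARP1, so that the lowest knockdown library was level with the highest control libraries. The log2 fold change was 0.12 (SE 0.05, edgeR adjusted p = 0.0417). The call was lost in 10 of 19 alternative analyses, over which the adjusted p ran from 0.0107 to 0.385, and the value fell to 0.057 without shCtrl replicate 1 (adjusted p = 0.385) and to 0.046 after the length and GC correction (adjusted p = 0.383). The other 7 subunits kept their call in all 19 of these analyses, which set no minimum fold change.

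**Figure D2:**
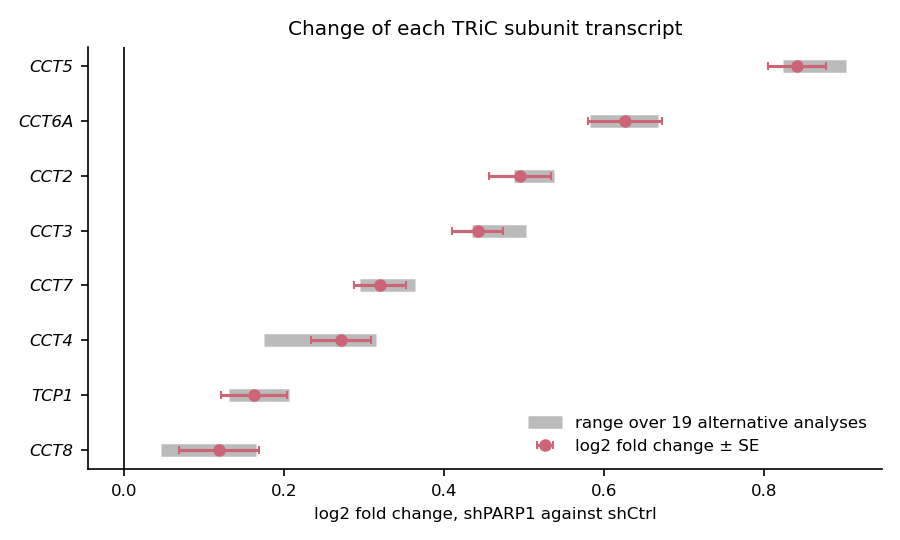
Red points are log2 fold changes (shPARP1 against shCtrl) with their SE for each subunit, and grey bars span the values from 19 alternative analyses. All points and bars lie right of 0, and the bar of CCT8 comes closest to it.

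The lowest count of any subunit in any library was 1348 (CCT8), where sampling alone gives a coefficient of variation of 2.72%; replicate libraries differed by more than sampling, and the control SD of CCT8 was 4.66 CPM on a mean of 61.7 CPM. The log2 ratio of 2 subunits within a library cancels the scaling of that library, and for 25 of the 28 pairs of subunits this ratio did not overlap between shCtrl and shPARP1. Of all pairs of tested genes 55.3% did not overlap, and of pairs of genes in the CPM range of the subunits 85.9%, so the count is near that of other genes at this level. The widest gap was that between CCT5 and CCT8, whose log2 ratio was higher by 0.72 in shPARP1, followed by CCT5 and TCP1, where it was higher by 0.68 (exact two-sided permutation p = 0.1 for both, the smallest that 3 against 3 libraries allow, and adjusted p = 0.112 over 28 pairs). The 3 pairs that overlapped were TCP1 with CCT8, CCT4 with CCT7, and CCT7 with CCT8. These pairs were compared after the values had been seen.

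Levels of different genes can be compared only per length, for which the deposited FPKM (fragments per kilobase of transcript, scaled to sequencing depth) were used. In shCtrl the order was CCT7 (171 ± 5.84 FPKM, SD, n = 3), CCT3 (131 ± 2.59), CCT4 (64.4 ± 3.18), CCT2 (42.8 ± 0.843), TCP1 (41.8 ± 1.68), CCT5 (38.3 ± 1.48), CCT8 (25.1 ± 2.16) and CCT6A (21.2 ± 0.939). Only CCT2 and TCP1 overlapped between neighbours in this order. In shPARP1 the order was CCT7 (220.4 ± 1.92 FPKM), CCT3 (184 ± 1.92), CCT4 (80.1 ± 2.01), CCT5 (70.8 ± 2.75), CCT2 (62.2 ± 0.458), TCP1 (48.2 ± 1.998), CCT6A (33.7 ± 1.86) and CCT8 (28.1 ± 0.984), with no overlap between neighbours. On this scale CCT5 stood below CCT2 and TCP1 in shCtrl and above both in shPARP1, and CCT6A and CCT8 changed places at the bottom. The place of CCT5 depends on the length used: per kilobase of merged exons (GENCODE release 29), a measure chosen after seeing the data, it was already above both in shCtrl, with 30.5 ± 0.772 CPM per kilobase against 27.2 ± 0.190 for CCT2 and 24.4 ± 0.660 for TCP1. CCT8 and CCT6A overlapped in shCtrl by that measure, and TCP1 and CCT6A in shPARP1. The FPKM of the top subunit was 8.11 ± 0.495 times that of the lowest in shCtrl and 7.86 ± 0.313 times in shPARP1 (SD, n = 3).

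The summed FPKM of the 8 subunits went from 536 ± 14.6 in shCtrl to 727 ± 10.5 in shPARP1, a ratio of 1.36. Within that sum, the share of CCT5 was 7.03%, 7.21% and 7.19% in shCtrl and 9.43%, 9.96% and 9.80% in shPARP1, a gain of 2.59 percentage points. The shares of CCT3 (by 0.791 points), CCT6A (0.682) and CCT2 (0.567) were also higher in all 3 knockdown libraries. CCT7 held 32.0% ± 0.889 of the sum in shCtrl and 30.3% ± 0.338 in shPARP1, and the shares of TCP1 (-1.16 points), CCT4 (-0.996) and CCT8 (-0.815) were lower in all 3 knockdown libraries too, although their CPM were higher. The shares sum to 100, so a gain of one lowers the others. For each of the 8 shares the exact two-sided permutation p was 0.1, the smallest possible with these libraries. The gene lengths behind the FPKM set these shares: the merged exons of GENCODE release 29 were between 0.991 (CCT4) and 1.74 (TCP1) times the length implied by the deposited counts and FPKM.

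**Figure D3:**
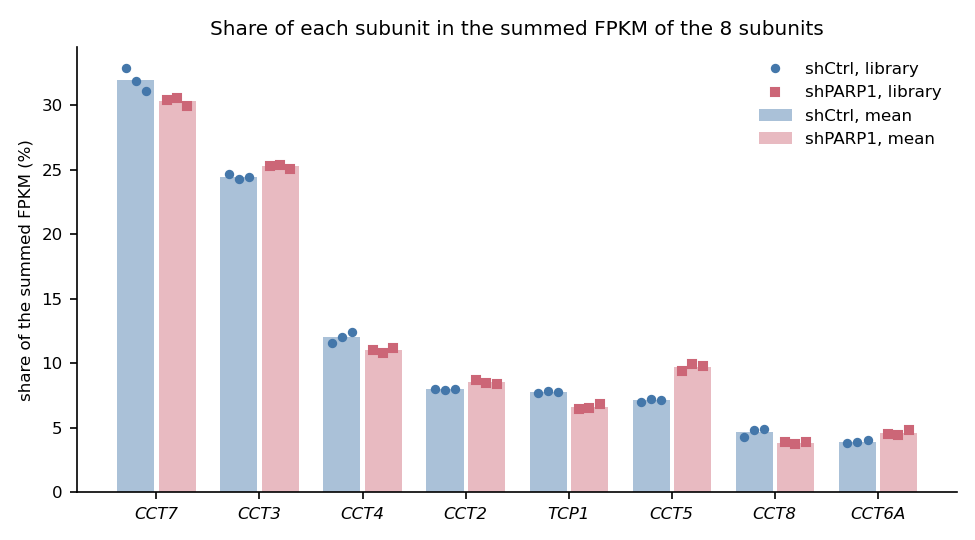
Bars are the mean share of each subunit in the summed FPKM of the 8 subunits (percent, from 0), and points are single libraries (circles shCtrl, squares shPARP1). The share of CCT5 is higher in shPARP1, 9.73% against 7.14%, and that of CCT7 is lower, 30.3% against 32.0%.

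The genes lie on 7 chromosomes of GRCh38. By GENCODE release 29, CCT3 spans 156308968 to 156367873 on the minus strand of chromosome 1, CCT4 61868089 to 61888804 on the minus strand of chromosome 2, CCT7 73233420 to 73253021 on the plus strand of chromosome 2, and CCT5 10249921 to 10266412 on the plus strand of chromosome 5. TCP1 spans 159778498 to 159789749 on the minus strand of chromosome 6, CCT6A 56051630 to 56063989 on the plus strand of chromosome 7, CCT2 69585334 to 69601570 on the plus strand of chromosome 12, and CCT8 29055805 to 29073797 on the minus strand of chromosome 21. The start of a gene was taken here as its outermost annotated 5′ end in this release. By these starts, a protein-coding gene starts within 1 kb on the opposite strand for 5 of the 8. That held for 17.1% of all tested protein-coding genes, and 4 of the 5 neighbours were called higher. RefSeq starts used below differ, as for CCT3 (156338292), CCT5 (10250537) and CCT7 (73234308), so the count and the distances can depend on the start used. Over all genes called higher that had a tested neighbour of this kind, 42.2% had one that was called higher.

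MRPL18, a mitochondrial ribosomal protein gene whose start lies 63 bases from that of TCP1, went from 45.7 ± 2.87 to 84.9 ± 2.47 CPM, a log2 fold change of 0.89 (SE 0.05, edgeR adjusted p = 6.6e-23), against 0.16 for TCP1. COMMD1, 80 bases from the start of CCT4 and overlapping it, went from 13.4 ± 1.24 to 25.4 ± 0.685 CPM (0.92). FAM173B, 24 bases from the start of CCT5, went from 1.36 ± 0.202 to 3.67 ± 0.215 CPM (1.43), and PRADC1, 182 bases from that of CCT7, from 29.9 ± 0.253 to 39.2 ± 1.94 CPM (0.39). PSPH, the serine synthesis enzyme 26 bases from the start of CCT6A, stood at 21.5 ± 1.75 CPM in shCtrl and 22.5 ± 0.715 CPM in shPARP1 and was not called (0.06, edgeR adjusted p = 0.539). The neighbour showed the larger log2 fold change at TCP1 and CCT4 and the smaller one at CCT6A, and the differences within pairs were not tested. At CCT5 and CCT7 the order depended on the processing: with log2(FPKM + 1), which understates changes of low genes, FAM173B was at 0.74 and CCT5 at 0.87, and with the length and GC correction PRADC1 was at 0.23 and CCT7 at 0.35. ACAT2, which overlaps the far end of TCP1, was not called either (0.01, edgeR adjusted p = 0.859). TSACC, which overlaps CCT3 on the other strand, had at most 6 counts in a library and was not tested. The strand setting of the counting is not given in the sources used here, so reads in the overlaps cannot be assigned to a strand. Small nucleolar RNA genes inside TCP1 (SNORA20, SNORA29) and CCT6A (SNORA15, SNORA22) had at most 1 count in a library. The libraries were made from polyadenylated RNA, so these counts are not read as levels of such RNAs.

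**Figure D4:**
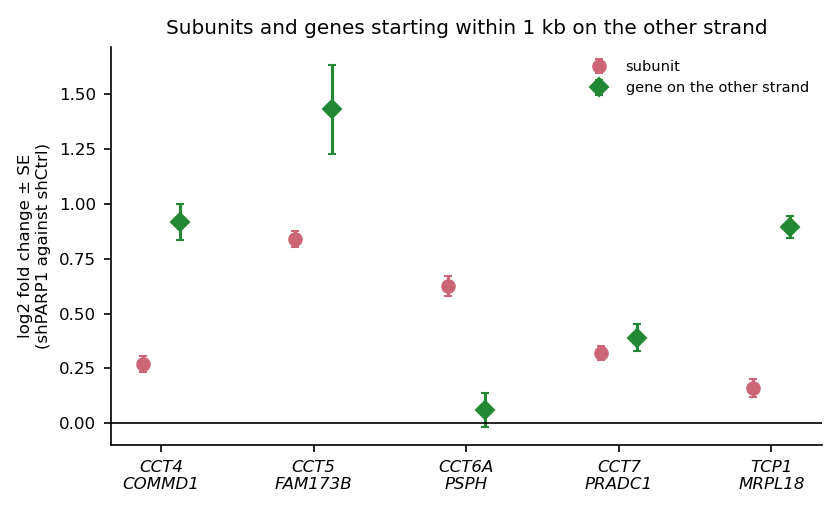
Log2 fold changes with their SE (shPARP1 against shCtrl) for the 5 subunits that have a protein-coding gene starting within 1 kb on the other strand (red circles) and for that gene (green diamonds). MRPL18 at 0.89 stands far above TCP1 at 0.16, while PSPH at 0.06 stands below CCT6A at 0.63.

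RefSeq windows of 250 bases before to 50 after a start (GRCh38.p14) matched 7 of the 8 subunits, in 9 windows; CCT6A had no entry. Of the 250 bases before each RefSeq start, 72 (CCT7) to 223 (1 window of CCT2) are annotated as exon of the same gene in GENCODE. For CCT3, CCT4 and TCP1, some bases are exon of a gene on the other strand (TSACC, COMMD1 and MRPL18). The stretches shown are the longest runs before the RefSeq start that lie outside annotated exons. They are shown for the subunit with the largest rise (CCT5), for the one with the smallest (CCT8), and for the gap between the divergent starts of TCP1 and MRPL18, each 5′ to 3′ in the direction of the gene, with capitals for matches to the motifs named after them.
CCT5, chr5:10250446-10250536, plus strand, inside an intron of longer CCT5 transcripts: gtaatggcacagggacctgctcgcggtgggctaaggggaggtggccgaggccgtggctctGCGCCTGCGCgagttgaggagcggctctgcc
TCP1, chr6:159789750-159789811, minus strand, outside the gene: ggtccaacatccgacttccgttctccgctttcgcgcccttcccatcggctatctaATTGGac
CCT8, chr21:29073798-29073898, minus strand, outside the gene: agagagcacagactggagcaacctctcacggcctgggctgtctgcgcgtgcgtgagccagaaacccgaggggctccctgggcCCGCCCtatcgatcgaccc

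In the stretch of CCT5 the capitals mark the pattern of the factor NRF1 (GCGC, any base N, then TGCGC), in that of TCP1 a CCAAT box on the reverse strand, and in that of CCT8 a GC box, GGGCGG, on the reverse strand. The stretch of CCT5 lies downstream of the GENCODE start of that gene (10249921). Its match is thus in intron sequence within the gene, not before its outermost start. Over the whole windows, with both strands searched, the NRF1 pattern occurred in CCT3 and CCT5. It was in 2 of the 9 subunit windows and in 5.78% of all 35116 windows. The CCAAT box occurred in TCP1, CCT2, CCT3 and CCT8, in 4 of the 9 and in 34.6% of all windows. The GC box occurred in TCP1, CCT2, CCT3, CCT7 and CCT8, in 6 of the 9 and in 44.95% of all windows. The subunit windows held from 22 (CCT7) to 35 (CCT4) CpG, a C followed by a G, against a median of 14 over all windows. The shares over all windows were not matched for this, so they are an unlike background for patterns rich in C and G. A pair of heat shock units, the repeats that make up the sites of the factor HSF1, was found as GAANNTTC in TCP1 and CCT2 (6.77% of all windows) and as TTCNNGAA in CCT4 (7.74%). The match of TCP1 lies in an annotated exon of MRPL18. A triplet of such units was in none of the 7 (0.490%), and a pair alone does not show a site of HSF1. The E-box CACGTG (7.26%) and the YY1 pattern AAGATGGCG (1.75%) matched none of the 7, and the ETS pattern CCGGAAG (10.3%) matched CCT2. No motif occurred in all 7 subunits with a window, and CCT6A could not be searched. CCT5 and CCT8, at the ends of the range of changes, shared none of the motifs searched. Whether any motif bears on the changes was not tested.

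Genes that could be confused with the subunits were looked for by symbol, and those found had few reads. Copies under other kinds of names were not looked for. CCT6B, a close paralog of CCT6A, had 0, 0 and 2 counts in shCtrl and 13, 5 and 2 in shPARP1 and was below the filter. The pseudogenes CCT6P3 (3.11 ± 0.649 and 2.90 ± 0.163 CPM in shCtrl and shPARP1), CCT6P1 (0.804 ± 0.194 and 0.587 ± 0.259 CPM) and CCT4P2 (0.466 ± 0.238 and 0.304 ± 0.214 CPM) were not called. Reads shared with such copies may have been split or dropped by the counting.

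The chaperonin-like proteins MKKS, BBS10 and BBS12 help to assemble the BBSome, a ciliary complex. MKKS rose from 24.1 ± 0.867 to 34.3 ± 1.17 CPM (log2 fold change 0.51, edgeR adjusted p = 2.7e-09). BBS10 (-0.66, adjusted p = 0.0844) and BBS12 (0.35, adjusted p = 0.211), with at most 2.37 CPM in a group mean, did not pass the edgeR test.

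Among genes that work with TRiC, more were called higher than lower. For comparison, 27.3% of all genes tested were called higher and 28.5% lower, and 46.3% of genes in the CPM range of the subunits were called higher. PFDN4, PFDN6, VBP1, URI1, PDCL3, TXNDC9 and PDCL had fewer CPM than any subunit, so the 46.3% is not matched to their level. All 6 prefoldin subunits rose, with log2 fold changes from 0.32 to 0.84 and a median of 0.57. PFDN2, which belongs to the beta class of prefoldin subunits, went from 38.5 ± 1.40 to 68.7 ± 1.67 CPM (0.84, SE 0.05), and PFDN4 (0.75), PFDN1 (0.63), PFDN6 (0.50), PFDN5 (0.45) and VBP1 (0.32) followed; VBP1 lost its call after the length and GC correction (0.088). The prefoldin-like genes UXT (0.52), URI1 (0.27) and PDRG1 (0.17) rose as well, but the length and GC correction brought UXT to 0.34, URI1 lost its call without shPARP1 replicate 2 (0.23), and PDRG1 lost it after the length and GC correction (0.06). Of the 3 phosducin-like genes tested, PDCL3 went from 5.48 ± 0.156 to 17.7 ± 1.05 CPM (1.69, SE 0.10), TXNDC9 rose by 0.49 on the log2 scale, and PDCL stood at 8.73 and 9.11 CPM and was not called.

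Among actin and tubulin genes, whose products need TRiC or are close relatives of those that do, 13 of 20 rose, 4 fell and 3 did not pass the test, with a median log2 fold change of 0.28. The shares over all genes tested were 27.3% higher and 28.5% lower, or 46.3% higher in the CPM range of the subunits. The alpha-tubulin gene TUBA1C went from 867 ± 8.73 to 1557 ± 32.9 CPM (0.84), and TUBB2A (0.76), ACTB (0.40) and TUBA4A (0.52) rose too. The 4 that fell were ACTA2 (-0.88, at most 1.40 CPM in a group mean, with the call lost without shCtrl replicate 3 at -0.78 or shPARP1 replicate 2 at -0.56), the Arp2/3 subunit gene ACTR2 (-0.50), TUBA1A (-0.25) and TUBB2B (-0.21), and ACTG1, TUBB and TUBE1 did not pass; these 7 are named after their values were seen. The families have near-identical members and pseudogenes that can share reads. Of 20 beta-propeller proteins and other reported clients, 13 rose and 2 fell, and the median was 0.24. The activators of the anaphase-promoting complex moved apart: CDC20 went from 338 ± 6.45 to 414 ± 3.48 CPM (0.29, or 0.18 with the length and GC correction) and FZR1 from 94.4 ± 2.29 to 48.1 ± 2.26 CPM (-0.97). BBS2, a BBSome subunit named after its value was seen, was the other gene that fell (-0.61). MLST8, a subunit of the mTOR kinase complexes, rose by 0.41 and STAT3 by 0.37 on the log2 scale. Of 6 tubulin folding genes 5 rose, TBCA (0.67), TBCB (0.33) and TBCD (0.17, or 0.38 with the length and GC correction) among them, and ARL2, the small GTPase that works with these cofactors, fell by 0.26.

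Other chaperone genes were also called higher more often than lower in these libraries, where 27.3% of all genes tested were called higher and 28.5% lower. In the CPM range of the subunits 46.3% of genes were called higher. Of 14 genes for cytosolic HSP90 and its cochaperones, 11 rose and none fell, and the median log2 fold change was 0.61. The HSP90 activator AHSA1 went from 71.4 ± 2.52 to 168 ± 0.585 CPM (1.24, SE 0.04), and RUVBL2 (0.71), FKBP4 (0.74) and the kinase adaptor CDC37 (0.63) rose. HSP90AA1, named after its value was seen, had the highest log2 fold change of this list (1.36). In the list of HSP70, HSP40 and HSP110, 12 of 19 tested members rose and 2 fell, with a median of 0.33. HSPA2 and DNAJB6, named after their values were seen, were those that fell, and DNAJB6 lost its call and its direction after the length and GC correction (0.068). Rises were found for HSPA1A (0.85) and HSPA1B (0.65), which are near-identical copies, for the nucleotide exchange factor HSPBP1 (0.82) and for DNAJA1 (0.65). Of 8 mitochondrial chaperone genes 7 rose, with a list median of 0.41; DNAJA3 (-0.04) was not called. HSPD1 and HSPE1, which form the mitochondrial chaperonin, rose by 0.45 and 1.07 on the log2 scale, and the protease LONP1 by 0.74 and GRPEL1 by 0.71. The heat shock factor HSF1, a known activator of chaperone genes, went from 140.1 ± 2.01 to 159.6 ± 8.66 CPM (0.19, or 0.41 with the length and GC correction), its binding protein HSBP1 rose by 0.73, HSF4 fell by 0.43, and HSF2 (-0.12) was not called, though it was called lower with that correction (-0.28).

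**Figure D5:**
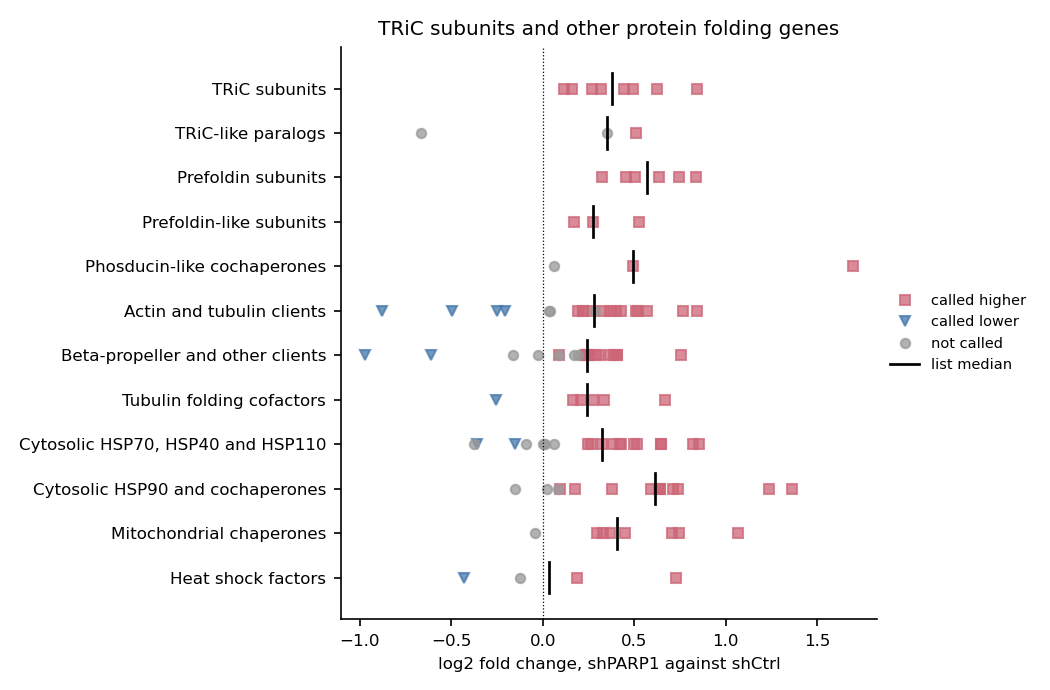
Log2 fold changes (shPARP1 against shCtrl) of the tested members of each list; squares were called higher, triangles lower and circles not called, and the vertical bar is the list median. The TRiC subunits lie between 0.12 and 0.84, and the medians of the HSP90 list (0.61) and of prefoldin (0.57) lie above theirs (0.38).

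Over all lists other than TRiC, 75 of 106 tested genes were called higher and 10 lower, against 27.3% higher and 28.5% lower over all genes tested. Calls depended on the level: of genes in the CPM range of the subunits 46.3% were called higher. The share called lower was not computed for that range. Some list genes lay outside it, such as ACTB above and PDCL3 below. The lists were also chosen with earlier results of these data known. No test compared one list with another, so these counts and medians are descriptions.

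Across the 6 libraries, the genes whose log2 CPM followed the mean of the 8 subunits most closely were RPS23 (Pearson r = 0.9996), a protein of the small ribosomal subunit, MAPRE1 (r = 0.9995), a microtubule end-binding protein, and NFKBIA (r = 0.9993), an inhibitor of NF-kB. They rose by 0.57, 0.65 and 0.53 on the log2 scale. The 6 points are 2 groups of 3, and of the 9561 genes compared 369 (3.86%) had r of at least 0.99, so many genes follow the subunits about as closely.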

How the data were processed

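The authors deposited raw gene-level counts (whole numbers) and, beside them, FPKM with 2 decimals, for 6 libraries. Per the labels' protocols, polyadenylated RNA was sequenced in paired-end mode from stranded libraries. Per the submitters' processing notes, the build was GRCh38 and the tools were bcl2fastq, TopHat2 and edgeR; the annotation and the tool that counted reads, with its strand setting, are not given in the sources here.

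Counts were fitted in R 4.3.3 with edgeR 4.0.16 (filterByExpr, TMM, robust quasi-likelihood F test) on the whole table. Calls needed an adjusted p (Benjamini-Hochberg) below 0.05. Alternatives used limma 3.58.1 and DESeq2 1.42.0, among others. Log2 CPM had a prior count of 2. For the length and GC correction, natural splines on merged exon length and on the GC content of the longest transcript (GENCODE release 29) entered as an offset; 99.2% of tested genes had both. TUBB3 had 2 rows, and the one with more counts was used. Correlations and permutation tests used Python 3.11.15 with scipy 1.17.1. The fit was tested on simulated counts in which few genes were changed, equally many up and down. That setting does not cover changes as widespread as those in these libraries.

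The subunits, paralogs, PARP1, neighbouring genes, up to 4 called genes of each list by smallest p, and 3 genes of like pattern were named by rule. Members and lists were chosen with earlier results of these data known. Replicates of a group differed by more than sampling noise, and each was counted.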

Additional observations from a re-analysis of the deposited data

How the results depend on the processing

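The count of 8 subunits called higher was 7 or 8 under every alternative without a minimum fold change, and the count called lower stayed at 0. A 2-fold minimum left 0 subunits (each fold change unchanged: TCP1 0.16, CCT2 0.49, CCT3 0.44, CCT4 0.27, CCT5 0.84, CCT6A 0.63, CCT7 0.32 and CCT8 0.12), 4 higher and 0 lower genes of the other lists, and 1 neighbour, FAM173B. CCT8 also lost its call with no filter (0.12), the likelihood-ratio test (0.12), DESeq2 (0.12), limma-voom (0.12), log2(FPKM + 1) (0.16), log2(FPKM + 0.1) (0.17) and the length and GC correction (0.046); leaving out 1 library gave 0.057 to 0.16, and the call was lost without shCtrl replicate 1 or shPARP1 replicate 1 or 3. The median of the subunits moved from 0.38 to 0.42 with either FPKM fit and to 0.43 with the length and GC correction, and leaving out 1 library gave 0.37 to 0.40. With counts per kilobase of merged exons, the share changes of TCP1 (-0.963 points), CCT4 (-1.46) and CCT5 (2.88) moved by more than the replicate SD. ACAT2 ranged from -0.0057 (without shPARP1 replicate 3) to 0.026 (without shPARP1 replicate 2) with 1 library left out and reached 0.084 with the length and GC correction. That correction turned DNAJB6 to 0.068, PDCL to -0.063 and DNAJA3 to 0.10; DNAJA3 was at 0.0026 and 0.0029 with the FPKM fits and between -0.069 and 0.015 with 1 library left out. BBS10 was called lower with the length and GC correction (-0.75) and without shCtrl replicate 1 (-0.91), and BBS12 higher without shCtrl replicate 2 (0.82).

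The replicate numbers are shared between groups. Deviations of same-numbered libraries correlated at 0.04, -0.00421 and 0.04 over 16040 genes, and those of differently numbered libraries at -0.059 to 0.025. Whether same-numbered libraries share a culture or a day stays unknown, because an effect on few genes would also leave these correlations small. With the replicate block 8 subunits were called higher, with a median of 0.38, and 77 genes of the other lists. Counts thinned to the smallest library total, chosen after seeing the data, gave 8 and 75. The cause of these shifts was not tested.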
